A study of Homo sapiens with 4 samples.

Results

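The genes described here encode ligands, receptors and SMAD proteins of transforming growth factor beta (TGF-beta) signalling, together with the SMAD repressor SKIL. They were chosen by gene symbol, and the coding-gene table held 8 rows under those symbols (TGFB2, TGFBR1, TGFBR2, TGFBR3, SMAD2, SMAD3, SMAD4 and SKIL) among 19739 rows. A ninth gene, TGFB1, has a row by its Ensembl identifier only and is described apart. The set was proposed with the treated and untreated FPKM values of these libraries already known, so the values are a description and carry no test.

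In this pathway a secreted dimeric ligand binds the type II receptor TGFBR2, a constitutively active serine/threonine kinase, which recruits and phosphorylates the type I receptor TGFBR1. TGFBR1 then phosphorylates SMAD2 and SMAD3, which join SMAD4 and act on transcription in the nucleus. The pathway is known for arresting the growth of hepatocytes and for driving stellate cells to lay down matrix in liver fibrosis.

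RNA was sequenced from 2 human liver cancer cell lines: HepG2 under RSL3@O2-ICG NBS plus low-frequency ultrasound (24 h), HepG2 left untreated, Huh7 given the same treatment, and Huh7 left untreated. Each of the 4 groups was 1 library without a replicate, and no sample analysed here received ultrasound, the carrier or RSL3 alone. Values are FPKM, fragments per kilobase of transcript scaled to the total of the library, and the depth inferred from the steps of low values was 22900000 to 26400000 fragments per library. Fewer cells of a kind and less RNA per cell cannot be told apart in such bulk samples.

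The libraries labelled HepG2 did not carry the markers of that line. Of 10 hepatocyte markers, 7 were listed at 0 in the treated and 8 in the untreated library labelled HepG2, with summed levels of 0.263 and 0.0788 FPKM. All 10 reached 1 FPKM in both Huh7 libraries, with sums of 1925 FPKM treated and 2104 FPKM untreated. Of these, AFP was just past 2-fold lower in treated Huh7 (88.2 FPKM treated and 178 FPKM untreated). ALB, the albumin gene, was among those at 0 under the HepG2 label, and the text therefore speaks of cells labelled HepG2. Of 9 fibroblast and stellate cell markers, 3 reached 1 FPKM in each library labelled HepG2 (sums of 9.85 treated and 9.06 untreated) and 2 in each Huh7 library (11.3 treated and 38.8 untreated). PDGFRA and COL1A2 were listed at 0 under the HepG2 label, where ACTA2 (5.23 FPKM treated and 1.22 FPKM untreated) and COL1A1 (2.32 FPKM treated and 0.423 FPKM untreated) were at least 2-fold higher and PDGFRB (1.67 FPKM treated and 5.67 FPKM untreated) lower in treated cells. In treated Huh7, LUM (8.05 FPKM treated and 31.7 FPKM untreated) and COL1A2 (log2 ratio -1.16) were at least 2-fold lower. The part of these markers in the results was not tested. The 5 endothelial markers summed to 1.15 FPKM or less in each library, with KDR at 0 in all 4. With 1 added to each FPKM, TIE1 was just past 2-fold higher in treated cells labelled HepG2 (1.06 FPKM treated and 0 FPKM untreated). The 6 blood cell markers summed to 21.6 FPKM in treated and 1.59 FPKM in untreated cells labelled HepG2, and to 5.14 FPKM in treated and 15.7 FPKM in untreated Huh7. PTPRC and CD3E, which define leukocytes and T cells, were at 0 in all 4 libraries. Most of the sum in untreated Huh7 was CD14, a monocyte receptor that hepatocytes also make (2.21 FPKM in treated and 15.1 FPKM in untreated Huh7). Most of the sum in treated cells labelled HepG2 was CD68, a lysosomal protein of macrophages and other cells (20.7 FPKM in treated and 1.38 FPKM in untreated cells labelled HepG2, and 2.83 FPKM in treated and 0.521 FPKM in untreated Huh7). The part of both in the results was not tested.

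Treated cells labelled HepG2 had less transcript of TGFB2, TGFBR1 and TGFBR3, while SMAD2, SMAD3 and SMAD4 transcripts stayed within 2-fold. Treated Huh7 cells had more TGFBR1 transcript. There the other 7 genes were within 2-fold with 1 added to each FPKM, the scale used for all counts, while the plain treated to untreated FPKM ratio of TGFB2 was 0.477, past 2-fold. The promoters of the 3 genes that passed 2-fold are shown from RefSeq (GRCh38.p14), each from 250 bases before to 50 after a start site and in the direction of the gene. Capitals mark exact matches to CAGAC, a core SMAD-binding sequence, and to GGGCGG, the GC box, on either strand.
TGFBR1: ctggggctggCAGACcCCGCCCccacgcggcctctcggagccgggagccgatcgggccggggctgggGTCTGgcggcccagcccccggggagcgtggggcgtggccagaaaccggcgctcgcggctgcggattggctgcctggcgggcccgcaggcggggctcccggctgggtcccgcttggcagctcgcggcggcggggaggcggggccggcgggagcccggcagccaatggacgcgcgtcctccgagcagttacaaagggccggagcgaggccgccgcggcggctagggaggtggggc
TGFBR3: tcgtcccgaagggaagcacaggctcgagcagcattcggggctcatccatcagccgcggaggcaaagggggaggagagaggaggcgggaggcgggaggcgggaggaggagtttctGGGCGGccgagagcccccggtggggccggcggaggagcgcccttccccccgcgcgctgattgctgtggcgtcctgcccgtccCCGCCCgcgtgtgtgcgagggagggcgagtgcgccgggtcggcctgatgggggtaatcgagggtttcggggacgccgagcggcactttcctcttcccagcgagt
TGFB2: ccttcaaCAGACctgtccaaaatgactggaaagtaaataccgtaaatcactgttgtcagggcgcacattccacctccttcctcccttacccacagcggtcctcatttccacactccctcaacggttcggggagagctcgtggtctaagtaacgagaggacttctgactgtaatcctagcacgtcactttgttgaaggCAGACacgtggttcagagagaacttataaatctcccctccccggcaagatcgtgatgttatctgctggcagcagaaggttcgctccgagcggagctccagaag
The TGFBR1 window lies at chr9:99104833-99105132 on the plus strand and is 1 of 8 listed for that gene, the nearest to the start of the main GENCODE 29 transcript (6 bases away). The TGFBR3 window lies at chr1:91886102-91886401 on the minus strand and the TGFB2 window at chr1:218345086-218345385 on the plus strand, 128 and 899 bases from the main transcript starts. The matches do not overlap each other. TGFBR1 and TGFB2 each had 2 CAGAC matches and TGFBR3 had 0. GGGCGG matched 1 time in TGFBR1, 2 times in TGFBR3 and 0 times in TGFB2. Of all 34943 promoter windows of that length, 45.3% held CAGAC and 44.9% held GGGCGG. The TGFB2 window also held TATAAA, the TATA box, searched on both strands, as did 11.6% of all windows. Its GC content was 51.7%, against 80% for TGFBR1, 71.7% for TGFBR3 and a median of 58.7% over all windows. These letter matches describe the windows and do not show binding.

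**Figure D1:**
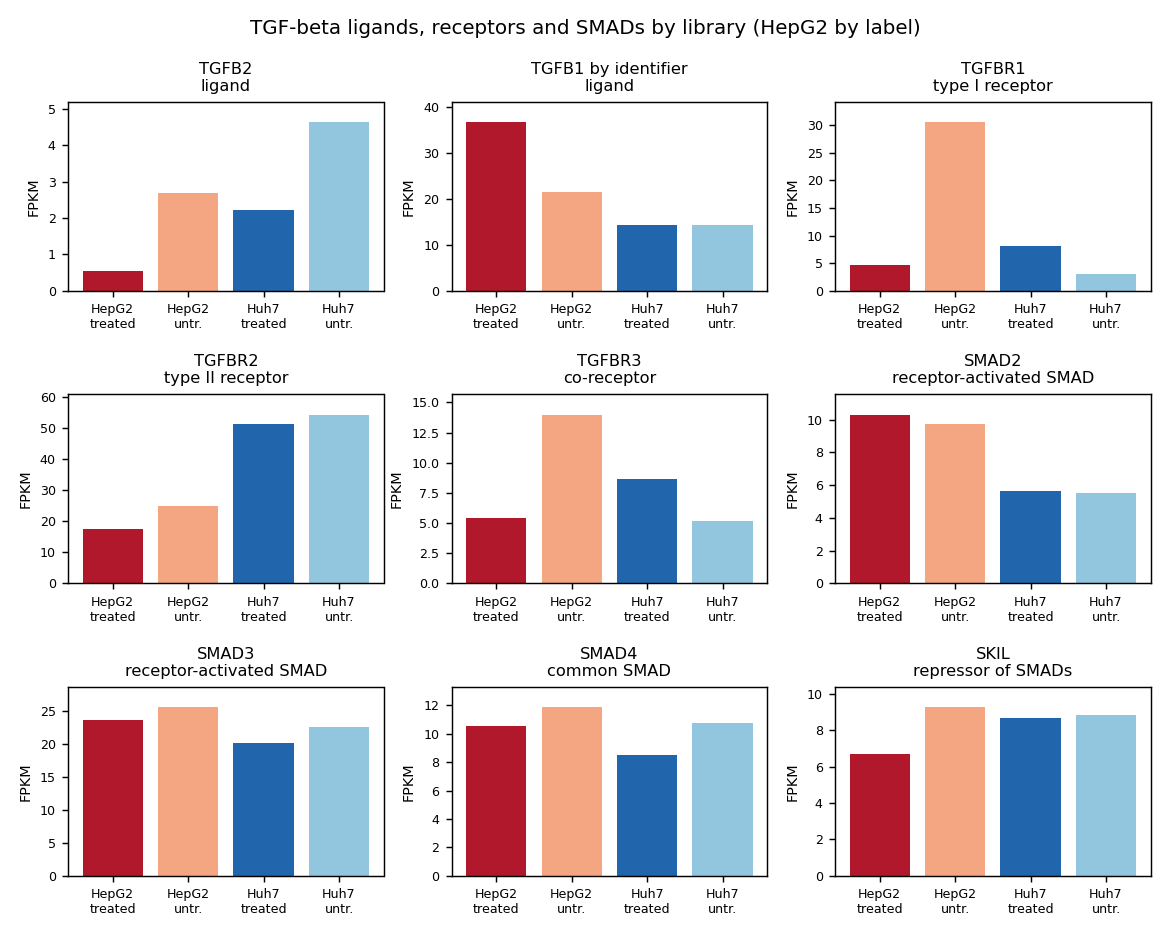
FPKM (vertical axis, from 0, a scale of its own in each panel) of each gene in the 4 libraries, with treated left of untreated within each line; each bar is 1 library. TGFBR1 stood at 4.64 FPKM in treated and 30.6 FPKM in untreated cells labelled HepG2, and at 8.14 FPKM in treated and 2.97 FPKM in untreated Huh7, so the bars run in opposite directions.

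TGFB2 encodes a ligand that needs the co-receptor TGFBR3 for tight binding to TGFBR2. TGFB2 (ENSG00000092969; chromosome 1, 218345336 to 218444619) stood at 0.544 FPKM in treated and 2.70 FPKM in untreated cells labelled HepG2. In Huh7 it stood at 2.21 FPKM treated and 4.64 FPKM untreated. The treated library was thus the lower one in both lines, and treated Huh7 was close to untreated cells labelled HepG2. The treated to untreated ratio of FPKM was 0.202 under the HepG2 label (95% interval 0.153 to 0.266) and 0.477 in Huh7 (0.411 to 0.554). These intervals cover counting error only, from an approximate 63 to 608 fragments per library. On the scale used for all genes, log2((treated FPKM + 1)/(untreated FPKM + 1)), the values were -1.26 and -0.81, and this scale understates the change of low genes. With a pseudocount of 0.1 they were -2.12 and -1.04, so the Huh7 value passed 2-fold there. Of the exonic bases of TGFB2, 26.6% overlap TGFB2-OT1 on the same strand, and the reads of the 2 genes cannot be separated there.

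TGFB1, the most widely expressed ligand of the family, has the Ensembl identifier ENSG00000105329. The row with that identifier carries the name AC011462.1, and its listed span of 89551 bases (chromosome 19, 41264361 to 41353911) is longer than the 52325 bases of TGFB1 in GENCODE 29 and reaches into HNRNPUL1. It stood at 36.6 FPKM in treated and 21.4 FPKM in untreated cells labelled HepG2. In Huh7 the row stood at 14.3 FPKM treated and 14.2 FPKM untreated. The log2 ratios were 0.75 under the HepG2 label, short of 2-fold, and 0.01 in Huh7. Whether the whole of this level belongs to TGFB1 was not tested, and the row is left out of every count below.

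TGFBR1, also called ALK5, is the type I receptor kinase that phosphorylates SMAD2 and SMAD3. TGFBR1 (ENSG00000106799; chromosome 9, 99104038 to 99154192) stood at 4.64 FPKM in treated and 30.6 FPKM in untreated cells labelled HepG2. In Huh7 it stood at 8.14 FPKM treated and 2.97 FPKM untreated. Untreated cells labelled HepG2 were above the other 3 libraries, and untreated Huh7 was the lowest. The treated to untreated FPKM ratio was 0.152 (counting interval 0.139 to 0.165) under the HepG2 label and 2.74 (2.45 to 3.07) in Huh7. Its log2 ratio of -2.49 was the 6th lowest of 11843 genes under the HepG2 label, and the 1.20 in Huh7 ranked 200th from the top of 11945. No other GENCODE 29 gene overlaps its exons.

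TGFBR3, betaglycan, presents ligand to TGFBR2 and has no kinase of its own. TGFBR3 (ENSG00000069702; chromosome 1, 91680343 to 91906335) stood at 5.42 FPKM in treated and 14.0 FPKM in untreated cells labelled HepG2. In Huh7 it stood at 8.64 FPKM treated and 5.20 FPKM untreated. The direction in each line was that of TGFBR1, at a smaller size. The FPKM ratio was 0.387 (0.342 to 0.436) under the HepG2 label and 1.66 (1.46 to 1.89) in Huh7, and the log2 ratios were -1.22 and 0.64.

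TGFBR2 (ENSG00000163513; chromosome 3, 30606502 to 30694142) stood at 17.5 FPKM in treated and 24.8 FPKM in untreated cells labelled HepG2, a log2 ratio of -0.48. In Huh7 it stood at 51.3 FPKM treated and 54.2 FPKM untreated, a log2 ratio of -0.08. Neither passed 2-fold. The level of TGFBR1 per unit of TGFBR2 was 0.265 in treated and 1.23 in untreated cells labelled HepG2. In Huh7 it was 0.159 treated and 0.0548 untreated. Treated cells thus had less type I per type II receptor transcript than untreated ones under the HepG2 label, and more in Huh7, and TGFBR1 exceeded TGFBR2 in untreated cells labelled HepG2 only. Which of 2 genes stands higher in FPKM also depends on the transcript lengths used.

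**Figure D2:**
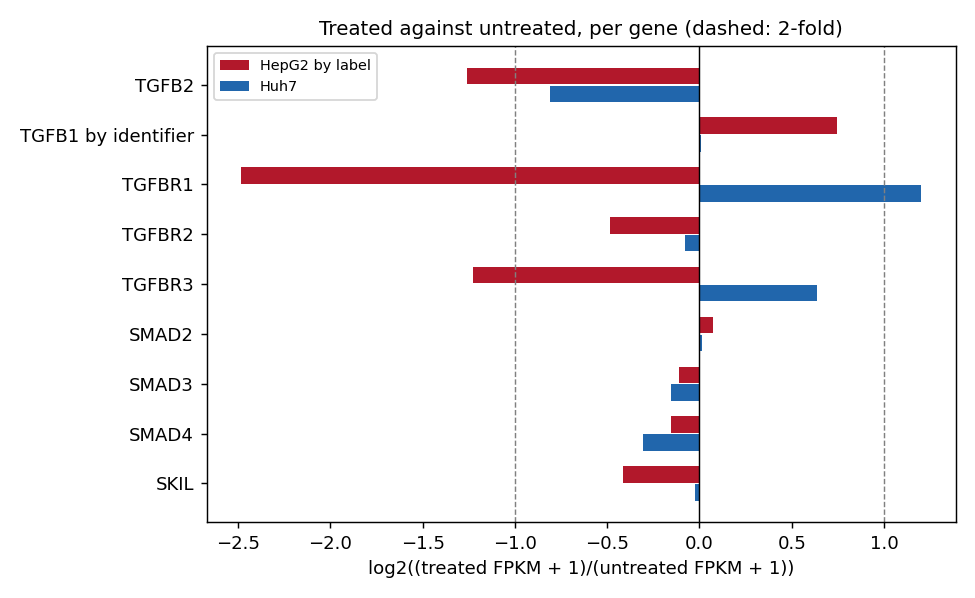
Log2 ratio of treated over untreated FPKM, each with 1 added (horizontal axis), for the 8 genes and the row with the identifier of TGFB1, with dashed lines at 2-fold. TGFBR1 reaches -2.49 under the HepG2 label and 1.20 in Huh7, while SMAD2, SMAD3 and SMAD4 lie between -0.31 and 0.07 in both lines.

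SMAD2 and SMAD3 carry the signal from TGFBR1, and SMAD4 is the shared partner that they need. SMAD2 (ENSG00000175387; chromosome 18, 47808957 to 47931146) stood at 10.3 FPKM in treated and 9.74 FPKM in untreated cells labelled HepG2, and at 5.62 FPKM in treated and 5.54 FPKM in untreated Huh7. SMAD3 (ENSG00000166949; chromosome 15, 67032263 to 67195169) stood at 23.6 FPKM in treated and 25.6 FPKM in untreated cells labelled HepG2, and at 20.2 FPKM in treated and 22.6 FPKM in untreated Huh7. SMAD4 (ENSG00000141646; chromosome 18, 51028394 to 51085045) stood at 10.6 FPKM in treated and 11.9 FPKM in untreated cells labelled HepG2, and at 8.47 FPKM in treated and 10.7 FPKM in untreated Huh7. No SMAD of the 3 passed 2-fold in either line. The log2 ratio furthest from 0 was that of SMAD4 in Huh7, at -0.31. Of the exonic bases of SMAD4, 7.37% overlap AC091551.1 on the same strand. The listed span of SMAD3, 162907 bases, is longer than its 131433 bases in GENCODE 29. The SMAD2 log2 ratios of 0.07 and 0.02 turned to -0.03 and -0.11 with size factors. SMAD3 stood above SMAD2 in FPKM in all 4 libraries, by 2.29 times in treated and 2.62 times in untreated cells labelled HepG2, and by 3.59 times in treated and 4.07 times in untreated Huh7. FPKM of different genes depends on the transcript length used for each. CCDS transcripts run from 12075 to 34526 bases for SMAD2 and from 1147 to 6247 bases for SMAD3.

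SKIL, also called SnoN, binds SMAD complexes and represses their target genes, and is itself a target of the pathway. SKIL (ENSG00000136603; chromosome 3, 170357307 to 170396835) stood at 6.72 FPKM in treated and 9.28 FPKM in untreated cells labelled HepG2, and at 8.69 FPKM in treated and 8.87 FPKM in untreated Huh7. The log2 ratios of -0.41 and -0.03 were short of 2-fold.

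In all, 3 of the 8 genes were at least 2-fold lower and 0 higher in treated cells labelled HepG2, where 2.43% of 11843 genes with at least 1 FPKM in either library were lower and 6.7% higher. In Huh7, 1 of 8 was higher and 0 lower, against 3.88% higher and 2.19% lower of 11945 genes. The genes were chosen with these ratios known, so nothing is read from the counts against those shares. The median log2 ratio of the 8 was -0.45 under the HepG2 label and -0.05 in Huh7, against 0.09 and 0.10 over all genes. Median-of-ratios size factors lowered the median of all genes by 0.107 under the HepG2 label and by 0.133 in Huh7. The shares higher and lower were then 5.19% and 3.25% under the HepG2 label, and 2.50% and 3.11% in Huh7. Relative to the median of all genes as deposited, TGFBR1 stood at -2.57 and 1.10, TGFBR3 at -1.31 and 0.54, and TGFB2 at -1.35 and -0.91.

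Before treatment, the 3 of the 8 genes at least 2-fold apart between the lines were the receptors. Untreated Huh7 cells had 2.97 FPKM of TGFBR1 against 30.6 FPKM in untreated cells labelled HepG2, a log2 ratio of -2.99. TGFBR3 was also lower in Huh7 (5.20 against 14.0 FPKM, log2 ratio -1.28). TGFBR2 was higher in Huh7 (54.2 against 24.8 FPKM, log2 ratio 1.09), just past 2-fold. In this comparison 1 of 8 genes was at least 2-fold higher and 2 lower, with 17.5% of 12446 genes higher and 17.2% lower. These values share the untreated libraries with the treatment ratios above. By FPKM, whose order between genes depends on the transcript lengths used, TGFBR1 was the highest of the 8 in untreated cells labelled HepG2. It was the lowest in untreated Huh7, where TGFBR2 led. TGFB2 was the lowest of the 8 in the other 3 libraries. In treated Huh7, SKIL, TGFBR3, SMAD4 and TGFBR1 lay between 8.14 and 8.69 FPKM, an order that single libraries cannot separate.

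Lists of other pathway genes, by role, held 99 genes that are not among the 8, and some of these genes stand on more than 1 list. Under the HepG2 label 84 reached 1 FPKM in either library, and 7 of these (8.33%) were at least 2-fold higher and 9 (10.7%) lower, beside 6.7% and 2.43% of all genes. In Huh7, 1 of 75 (1.33%) was higher and 6 (8%) lower, beside 3.88% and 2.19% of all genes. The median log2 ratios were 0.06 under the HepG2 label and -0.01 in Huh7, beside 0.09 and 0.10 over all genes.

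The pathway genes at least 2-fold lower in both lines were 3 inhibitors, SMAD6, SMAD7 and BAMBI, of 73 measured in both, and 0 were higher in both. The share of all genes past 2-fold in both lines was not computed, so nothing is read from these counts. SMAD6 and SMAD7 block receptor access for the other SMADs, and BAMBI is a receptor-like protein without a kinase. SMAD7 stood at 6.74 FPKM in treated and 14.7 FPKM in untreated cells labelled HepG2, and at 6.23 FPKM in treated and 15.9 FPKM in untreated Huh7. Under the HepG2 label SMAD7 was only just past 2-fold (log2 ratio -1.02). SMAD6 stood at 9.01 FPKM in treated and 22.7 FPKM in untreated cells labelled HepG2, and at 4.70 FPKM in treated and 15.8 FPKM in untreated Huh7. BAMBI stood at 7.60 FPKM in treated and 19.6 FPKM in untreated cells labelled HepG2, and at 15.1 FPKM in treated and 33.2 FPKM in untreated Huh7. The treated library was the lower one for each of the 3 genes in each line. Of 16 measured negative regulators, these 3 were at least 2-fold lower and 0 higher in each line, and the list medians were 0.02 and -0.08. Over all genes, 2.43% were at least 2-fold lower under the HepG2 label and 2.19% in Huh7.

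The other receptors and co-receptors of the superfamily, mostly those for activins and bone morphogenetic proteins (BMPs), had medians above 0. Among them the co-receptors ENG and CD109 reached 1 FPKM under the HepG2 label only. Of 9 measured under the HepG2 label 0 passed 2-fold in either direction (median log2 ratio 0.51), and of 7 in Huh7 only BMPR2, the type II BMP receptor, was higher (median 0.38). BMPR2 stood at 5.58 FPKM in treated and 3.04 FPKM in untreated cells labelled HepG2, and at 5.91 FPKM in treated and 1.80 FPKM in untreated Huh7. The SMADs of the BMP branch were within 2-fold. SMAD1 lay between 1.62 and 3.60 FPKM in all 4 libraries. SMAD5 lay between 9.41 and 12.5 FPKM in all 4 libraries, and SMAD9 stayed under 1 FPKM in each.

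Of genes that store or activate latent ligand, 1 of 9 was at least 2-fold lower under the HepG2 label (median -0.71). In Huh7, 0 of 8 passed 2-fold (median -0.08). The gene past 2-fold was THBS1, thrombospondin 1, which can release active ligand. It stood at 10.9 FPKM in treated and 38.7 FPKM in untreated cells labelled HepG2, and at 66.9 FPKM in treated and 127 FPKM in untreated Huh7. Among 15 measured adaptors and co-activators 1 was at least 2-fold higher under the HepG2 label. This was the SMAD partner RUNX3, at 12.3 FPKM treated and 3.64 FPKM untreated. In Huh7, 0 of 14 passed 2-fold, and RUNX3 stood at or near 0. In the non-SMAD branch 1 of 10 was at least 2-fold lower in each line. It was ROCK2 under the HepG2 label (6.54 FPKM treated and 14.7 FPKM untreated) and CDC42 in Huh7 (43.6 FPKM treated and 110 FPKM untreated).

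Textbook target genes of the pathway went both ways under the HepG2 label. Of 26 measured, 6 were at least 2-fold higher and 6 lower (median log2 ratio 0.12), beside 6.7% and 2.43% of all genes. In Huh7, 0 of 20 were higher and 3 lower (median -0.53), beside 3.88% and 2.19% of all genes. The 3 were SMAD7, CDKN1A and COL4A1. COL4A1, a basement membrane collagen, is outside the naming rule and was picked after its values were seen. It stood at 0.109 FPKM in treated and 1.54 FPKM in untreated Huh7, close to the minimum of 1 FPKM. CDKN1A, the p21 cell cycle inhibitor, stood at 162 FPKM in treated and 31.6 FPKM in untreated cells labelled HepG2, and at 6.07 FPKM in treated and 13.3 FPKM in untreated Huh7. CCN2, connective tissue growth factor, stood at 11.7 FPKM in treated and 48.1 FPKM in untreated cells labelled HepG2, and at 154 FPKM in treated and 237 FPKM in untreated Huh7. KLF10, an early response gene of the pathway, stood at 15.8 FPKM in treated and 3.69 FPKM in untreated cells labelled HepG2, and at 6.97 FPKM in treated and 7.55 FPKM in untreated Huh7. The largest ratio was that of the cytokine IL11, at 35.3 FPKM in treated and 0.962 FPKM in untreated cells labelled HepG2, and below 1 FPKM in both Huh7 libraries. Of these genes, CDKN1A was the one past 2-fold in both lines in opposite directions. All of them answer to other pathways as well.

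**Figure D3:**
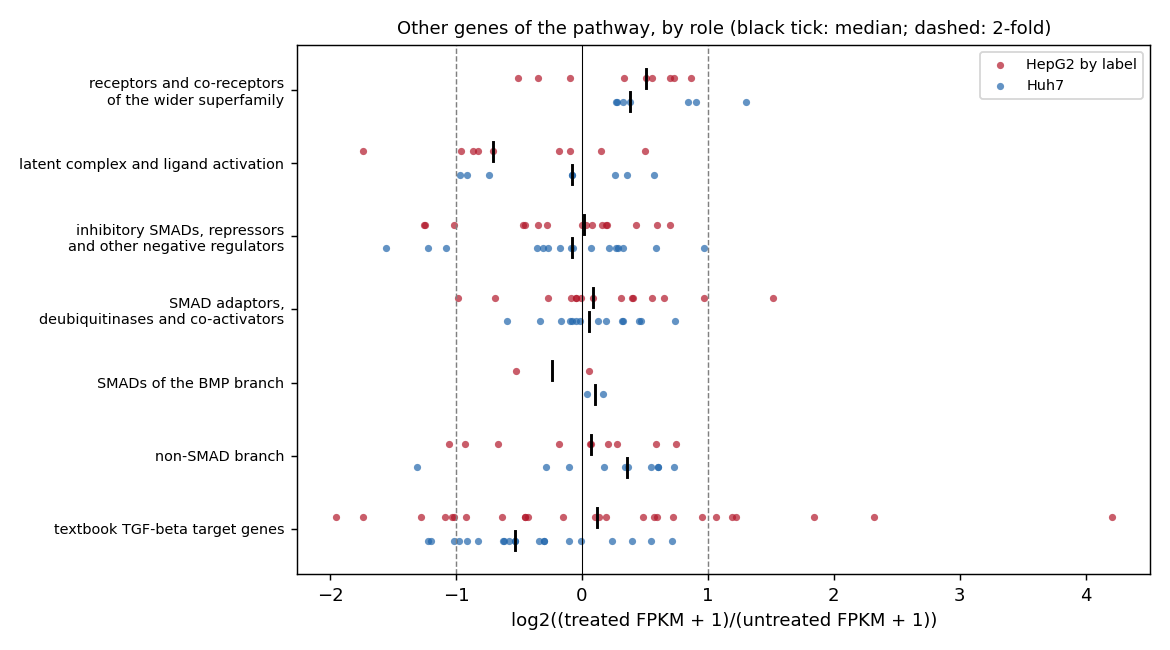
Log2 ratio of treated over untreated FPKM, each with 1 added (horizontal axis), for the other pathway genes that reached 1 FPKM in the line, by role; each point is 1 gene, black ticks are medians and dashed lines mark 2-fold. The superfamily receptors have medians of 0.51 under the HepG2 label and 0.38 in Huh7, and under the HepG2 label the textbook targets spread furthest, from -1.95 to 4.21.

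**Figure D4:**
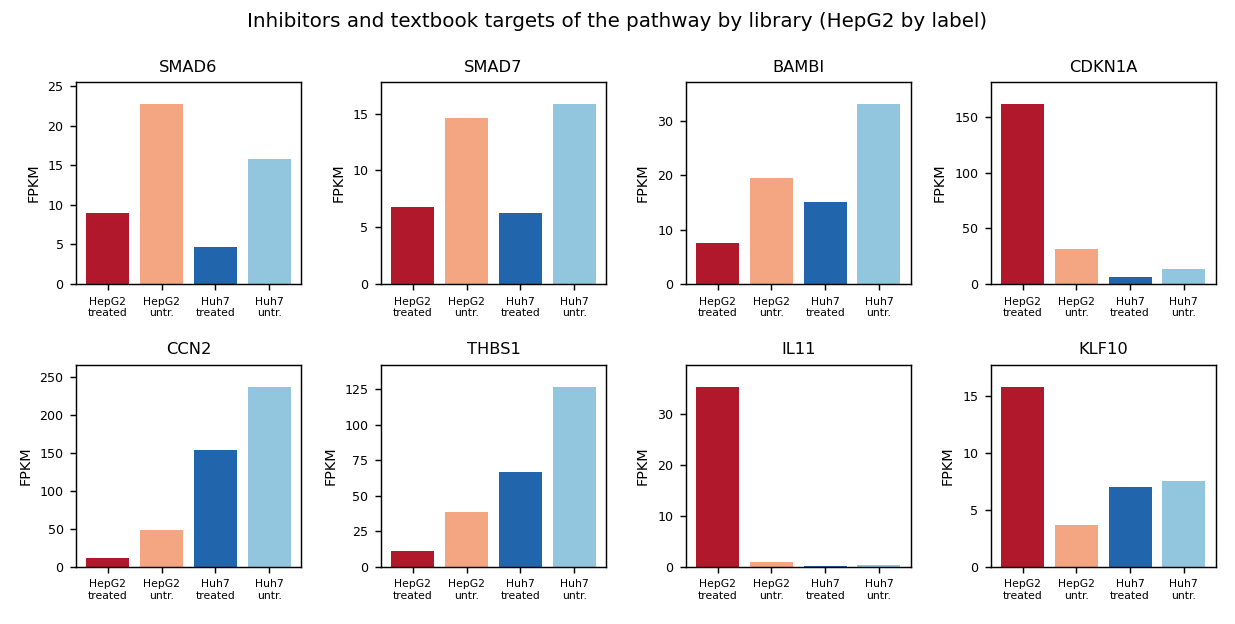
FPKM (vertical axis, from 0, a scale of its own in each panel) of 8 inhibitors and targets of the pathway in the 4 libraries, with treated left of untreated within each line; each bar is 1 library. SMAD6, SMAD7 and BAMBI are lower in the treated library of both lines, and CDKN1A runs in opposite directions.

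The genes nearest in pattern were found by Euclidean distance between log2(FPKM + 1) values, each gene centred on its mean over the 4 libraries, among 13030 genes. For TGFBR1 they were MAZ, a zinc finger transcription factor (distance 0.78), MEMO1 (0.83) and the readthrough gene CHURC1-FNTB (0.85). MAZ stood at 31.4 FPKM in treated and 92.9 FPKM in untreated cells labelled HepG2, and at 47.7 FPKM in treated and 21.0 FPKM in untreated Huh7. The match to TGFBR1 was looser than that of the nearest genes to TGFBR3, which were COX7A2L (0.13), CIAO3 (0.16) and SREK1 (0.16). For TGFB2 they were AF196969.1 (0.18), the selenoprotein gene SELENOH (0.18) and BAMBI (0.19). A distance over 4 libraries is a description and says nothing of shared control.

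The authors' deposited tables of Gene Ontology terms list TGFB2, TGFBR1 and TGFBR3 among the 3213 genes of their HepG2 comparison, and TGFB2 and TGFBR1 among the 2438 of their Huh7 comparison. TGFBR2, SMAD2, SMAD3, SMAD4, SKIL and the identifier of TGFB1 are under no term of either table. In the authors' deposited table for HepG2, 4 of 46 terms named for TGF-beta or SMAD have a corrected p under 0.05, the first being TGF-beta receptor binding with 18 of 52 genes (corrected p 0.00989). In the authors' deposited table for Huh7, 1 of 43 does, type II TGF-beta receptor binding with 5 of 7 genes (corrected p 0.0235). These terms have genes in common. The share of all terms with a corrected p under 0.05 was not computed, so nothing is read from the counts of terms. For the KEGG TGF-beta pathway the authors' deposited tables give 22 of 80 genes for HepG2 (corrected p 0.649) and 18 of 80 for Huh7 (corrected p 0.711), with TGFB2 and TGFBR1 in both. The labels and headers do not say how the authors chose these genes.

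Of the noncoding transcripts, 1 is named for a gene of the set, TGFB2-AS1. It was at 0 under the HepG2 label, treated and untreated, and at 0.0497 FPKM in treated and 0.0742 FPKM in untreated Huh7. These levels correspond to about 1 fragment or fewer, under the 3 fragments taken as a floor.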

How the data were processed

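RNA was sequenced in 4 libraries, 1 per group. The authors deposited FPKM per coding gene (19739 rows) and per noncoding transcript (29119 rows), per the file headers, together with p-values and corrected p-values of their enrichment tables. The submitters' processing notes list, with no role for any, the aligners HISAT2 and Bowtie2 (2.2.8), then StringTie (1.3.1) and Cuffdiff (2.1.1), and also GATK, SAMtools (0.1.18) and Picard (1.96). No genome build is named there or in the headers. Listed starts and ends of 5 of the 8 genes equal those of GENCODE 29 on GRCh38, and positions are printed as listed.

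Ratios were log2((FPKM + 1)/(FPKM + 1)) over genes with at least 1 FPKM in either library compared, and those at least 2-fold apart were counted (Python 3.11.15, pandas 2.3.3, scipy 1.17.1), a step tested on simulated data. Count models do not suit FPKM, and with 1 library per group no test was run. Depth came from the step of FPKM times length in 2595 genes with 1 transcript. Counting intervals (95%, exact binomial) used that depth and the shortest CCDS transcript, so they are approximate. Alternatives were a pseudocount of 0.1, a minimum of 5 FPKM or none, equal sums and size factors.

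The genes and lists were chosen with earlier results of these data known. Named were all 8 genes, up to 4 genes past 2-fold with the largest ratio per list, every gene of a list of 3, the 3 nearest in pattern, noncoding transcripts named for a gene of the set, and markers for the label check. Promoters were the RefSeq windows nearest to the main GENCODE 29 transcript.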

Additional observations from a re-analysis of the deposited data

Results flagged for a closer look

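Genes whose treated to untreated ratio ran in opposite directions in the 2 lines, with at least 2-fold in 1 line and at least 1.5-fold in the other, were singled out. With 1 library per group the difference between the lines was not tested. TGFBR1 had log2 ratios of -2.49 under the HepG2 label and 1.20 in Huh7, and the Huh7 value minus the HepG2 value was 3.69. For TGFBR3 the log2 ratios were -1.22 and 0.64, a difference of 1.86 in the same sense. ROCK2 had log2 ratios of -1.06 and 0.61, a difference of 1.67. CDKN1A ran the other way, with 2.32 under the HepG2 label and -1.01 in Huh7, a difference of -3.33. The hepatocyte markers differ between the 2 lines as well, and their part in these differences was not tested.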

How the results depend on the processing

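With a pseudocount of 0.1 FPKM, TGFB2 became the 1 gene of the set at least 2-fold lower in Huh7 (log2 ratio -1.04), and 4 of the 75 other pathway genes were higher in Huh7 in place of 1, which follows from the smaller pseudocount. Of the other totals, those of the 8 genes in the 3 comparisons and of all listed pathway genes in the 2 treatment comparisons stayed within 1.5 times of those reported under all 5 alternatives, though TGFB2 was under the minimum of 5 FPKM and had no value there. Shares over all genes moved more: with a pseudocount of 0.1 FPKM 11.2% were higher under the HepG2 label and 8.12% in Huh7, and the lower share in Huh7 was 3.53%. With no minimum the shares higher and lower were 4.02% and 1.46% under the HepG2 label, and 2.35% and 1.32% in Huh7. Counts per list, in both lines at once and of pathway genes between the untreated lines were not recomputed. Of 117 recomputed ratios of single genes, 103 moved by less than their counting error and 14 by more. The 103 include every ratio under a minimum of 5 FPKM or none. A change of the minimum only decides which genes are kept, so those ratios could not move and say nothing of stability. TGFBR1 ranged from -2.70 to -2.45 under the HepG2 label and from 1.08 to 1.42 in Huh7, and TGFBR3 from -1.35 to -1.19 and from 0.51 to 0.72. No paired analysis was possible because each group holds 1 library and no test was run. Depth limits TGFB2 most, at an approximate 63 fragments in treated cells labelled HepG2.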

Other observations

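Other pathway genes also set the untreated lines apart. The genes in this paragraph were picked after their values were seen. PMEPA1, a target gene that restrains TGF-beta signalling, stood at 0.0146 FPKM in untreated Huh7 and 9.79 FPKM in untreated cells labelled HepG2. ENG, the co-receptor endoglin, stood at 0.00567 FPKM in untreated Huh7 and 31.4 FPKM in untreated cells labelled HepG2. FN1, fibronectin, went the other way, at 294 FPKM in untreated Huh7 and 1.98 FPKM in untreated cells labelled HepG2. Over the 82 other pathway genes measured in either untreated library, 13 (15.9%) were at least 2-fold higher and 16 (19.5%) lower in Huh7. Of all genes 17.5% were higher and 17.2% lower, so these pathway genes differed about as often as genes in general.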
